A study of Mus musculus with 11 samples.

Results

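The genes described here are 43 cell cycle and mitosis genes, chosen by gene symbol from the 28692 genes listed for every library, and followed through the tubular, stromal, endothelial and immune cells of fibrotic and control mouse kidneys. They comprise 27 mitotic genes, 14 genes of DNA replication and nucleotide supply, and Stmn1 and Hmgb2, which were placed in neither of these lists. Droplet single-cell RNA-seq measured the transcripts of dissociated kidneys from adult male C57Bl/6 mice. The series holds 5 control libraries (Ctrl, N1, N2, AN1 and AN2), 3 libraries of unilateral ischemia-reperfusion (UIR, UIR1 and UIR2), in which the left renal pedicle was clamped and released, and 3 of unilateral ureteral obstruction (UUO, UUO1 and UUO2), in which the left ureter was tied off for good. The control kidneys came from naive mice. By the study's methods the injured kidneys were taken weeks after surgery, and the numbers of mice match the numbers of libraries, although the labels do not tie a library to a mouse. The labels name the controls in 3 sets (Ctrl, N and AN) and give no date or run, so that an effect of the run and one of injury cannot be told apart.

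A dividing cell first loads the Mcm helicase on its DNA and makes deoxynucleotides for replication, then builds a spindle, attaches chromosomes to it at kinetochores and splits. Most mitotic genes are transcribed only shortly before division, whereas the helicase subunits, the sliding clamp Pcna and the enzymes of nucleotide synthesis are also used in DNA repair and appear earlier in the cycle. The mature kidney tubule turns over slowly, and after injury surviving tubular cells can re-enter the cycle or stop before completing it.

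The totals were 91920461 to 110914244 UMIs (unique transcript molecules) in the control libraries and 82522753 to 117043590 in the UIR libraries, but 49503312 to 60918546 in the UUO libraries. After filtering, 40608 cells were kept. Mitochondrial reads removed 56.9% to 78.8% of the called barcodes in control, 23.9% to 37.2% in UIR and 3.17% to 8.02% in UUO libraries. At most 19 cell barcodes were shared by any pair of libraries. Cells were named from marker genes, and the UMIs of each cell type were summed in each library to give a pool, whose levels are in CPM, the UMIs of a gene scaled to the same total in every pool. In such sums the number of dividing cells, the RNA per dividing cell and expression in cells that do not divide cannot be told apart. Control podocytes, which rarely divide, stood at 6.09 to 31.4 CPM of Spc25 and 73.2 to 127 CPM of Stmn1, but at 0 CPM of Kif23 and Rrm2. A small number of cells sets some control values. In the tubular pool of library Ctrl, 79 of 85 Mki67 UMIs came from 1 cell, in the endothelial pool of AN2 28 of 29 did, and in the T/NK pool of AN1 1 cell held 37 of the 43 mitotic UMIs.

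Tubular cells outside the proximal tubule had the most members called, with more transcripts of the helicase subunits Mcm4, Mcm6 and Mcm7 and of Stmn1 and fewer of Rrm2, the kinetochore gene Spc25 and the cytokinesis gene Kif23 in both models. This pool held 1592 control, 4581 UIR and 2330 UUO cells. Of the 43 members, 34 had enough counts to be tested. In UIR 4 were higher and 3 lower than in control (edgeR quasi-likelihood test, adjusted p under 0.05). These were 20.6% of the tested members, beside 38.2% of all genes tested in that comparison, of which 20.6% were higher and 17.6% lower. In UUO 6 were higher and 5 lower, which was 32.4% of the tested members beside 46.5% of all genes, with 24.5% higher and 22% lower. The share of members that changed was thus below that of genes in general in both models. The median log2 fold change of the tested members was -0.23 in UIR and -0.15 in UUO, beside 0.03 over all genes in each. UIR and UUO were compared with the same control libraries. Markers of other cells moved with injury in this pool. The summed level of the 11 macrophage markers was 13.4 to 23.6 CPM in control, with 2 of them at 0, 206 to 264 CPM in UIR and 405 to 491 CPM in UUO libraries. That of the 12 stromal markers was 9.18 to 42.3 CPM, 42 to 174 CPM and 77.8 to 149 CPM, and that of the 21 markers of the tubule outside the proximal tubule was 14490 to 18120 CPM, 8680 to 9995 CPM and 5343 to 6008 CPM. Their part in the results was not tested.

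Of the 6 helicase genes Mcm4, Mcm6 and Mcm7 were higher in both models. Mcm7, a helicase subunit, stood at 15.3, 11.4, 8.17, 10.8 and 10.0 CPM in control libraries Ctrl, N1, N2, AN1 and AN2. It stood at 21.1, 25.5 and 27.4 CPM in the UIR and at 26.2, 32.2 and 31.6 CPM in the UUO libraries. Every injured library was above every control library. The log2 fold change was 0.87 (SE 0.15, adjusted p = 0.000427) in UIR and 1.12 (SE 0.15, adjusted p = 3.78e-05) in UUO. Mcm7 overlaps Mir25, Mir93 and Mir106b on its own strand and Cops6 and Ap4m1 on the other. Whether any of its reads were theirs was not tested. Mcm6 stood at 5.42 to 14.1 CPM in control, at 19.5 to 22.1 CPM in UIR and at 21.1 to 25.4 CPM in UUO libraries, again with no overlap, and rose by 0.85 (SE 0.20) and 0.99 (SE 0.20) on the log2 scale. Mcm4 stood at 5.29 to 6.94 CPM in control, at 10.2 to 11.1 CPM in UIR and at 11.5 to 11.9 CPM in UUO libraries, and rose by 0.60 (SE 0.15) and 0.70 (SE 0.15). Mcm3 and the sliding clamp gene Pcna rose in UUO only by the test, by 0.95 (SE 0.36, adjusted p = 0.0459) and 0.51 (SE 0.16, adjusted p = 0.0174). Their log2 fold changes in UIR were 0.68 and 0.16 and did not pass it, and the difference between the models did not pass it either. The call of Pcna was lost without the library labelled UUO. Mcm5 at 1.62 to 6.48 CPM in control, 4.16 to 5.26 CPM in UIR and 4.53 to 5.04 CPM in UUO libraries overlapped between groups, and Mcm2 did not pass the test in either model.

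Stmn1, which encodes the microtubule destabiliser stathmin, changed more than any helicase gene. It stood at 39.6, 6.22, 12.0, 5.84 and 12.3 CPM in Ctrl, N1, N2, AN1 and AN2, at 68.1, 87.8 and 77.0 CPM in the UIR and at 99.2, 95.7 and 87.9 CPM in the UUO libraries. The groups did not overlap although Ctrl was far above the other controls. The log2 fold change was 1.96 (SE 0.36, adjusted p = 0.000755) in UIR and 2.20 (SE 0.36, adjusted p = 0.000218) in UUO. Hmgb2, a chromatin protein of cycling cells, stood at 77.2 to 123 CPM in control, 122 to 140 CPM in UIR and 130 to 141 CPM in UUO libraries, and did not pass the test (log2 fold changes of 0.20 and 0.22).

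Rrm2, the small subunit of ribonucleotide reductase that limits deoxynucleotide supply, moved the other way from the helicase. It stood at 22.7, 8.29, 5.77, 7.09 and 5.82 CPM in Ctrl, N1, N2, AN1 and AN2. It stood at 2.31, 2.6 and 2.11 CPM in the UIR and at 1.74, 1.76 and 1.64 CPM in the UUO libraries, so that every injured library was below every control. It fell by 2.37 (SE 0.41, adjusted p = 0.000462) in UIR and by 2.85 (SE 0.44, adjusted p = 0.000123) in UUO on the log2 scale. The other genes of nucleotide synthesis did not pass the test. Tyms, the thymidylate synthase, stood at 17.6 to 25.4 CPM in control, 19.9 to 24.3 CPM in UIR and 17.7 to 27.5 CPM in UUO libraries, and Rrm1 and Tk1 did not pass it in either model.

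**Figure D1:**
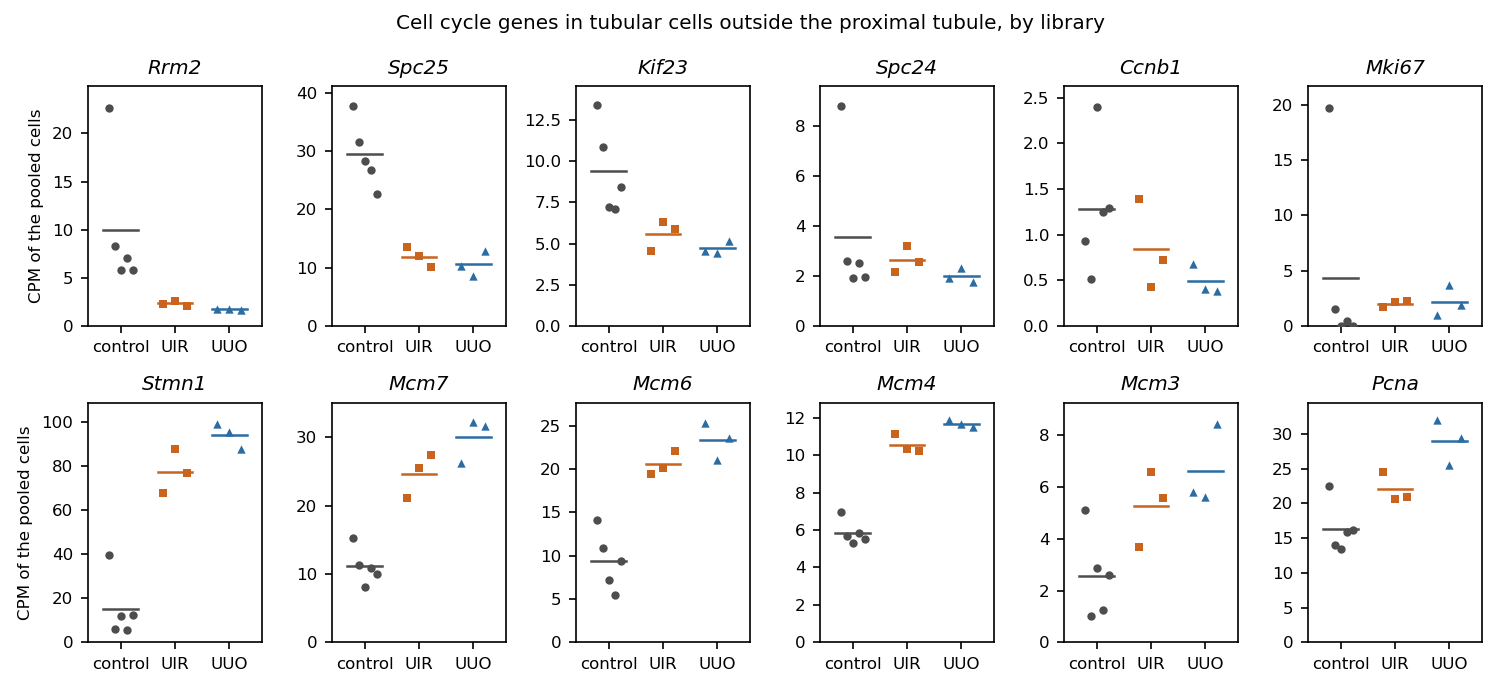
Levels of 12 members in tubular cells outside the proximal tubule. Each point is 1 library (5 control, 3 UIR, 3 UUO), the y axis is CPM of the pooled cells on a linear scale from 0 with its own range in each panel, and the line is the group mean. Rrm2 and Spc25 lie lower and Stmn1, Mcm7 and Mcm6 higher in every injured library than in every control library, whereas Mki67 is at 19.7 CPM in Ctrl and at 3.73 CPM or less in the other libraries.

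Spc25 and Kif23 were lower in both models. Spc25, a subunit of the Ndc80 complex that holds microtubules at the kinetochore, stood at 37.7, 31.6, 28.3, 26.7 and 22.6 CPM in Ctrl, N1, N2, AN1 and AN2, at 13.5, 12.1 and 10.1 CPM in the UIR and at 10.2, 8.62 and 12.9 CPM in the UUO libraries. The groups were fully apart. It fell by 1.54 (SE 0.19, adjusted p = 2.26e-05) in UIR and by 1.77 (SE 0.19, adjusted p = 5.46e-06) in UUO on the log2 scale. Kif23, a kinesin of the central spindle, stood at 7.09 to 13.4 CPM in control, 4.55 to 6.32 CPM in UIR and 4.41 to 5.17 CPM in UUO libraries, and fell by 1.01 (SE 0.22) and 1.30 (SE 0.23). Spc24, the partner of Spc25, and the mitotic cyclin Ccnb1 fell in UUO only by the test, by 1.2 (SE 0.45, adjusted p = 0.0427) and 1.6 (SE 0.61, adjusted p = 0.0432). Both overlapped between groups, with Spc24 at 1.92 to 8.80 CPM in control and 1.77 to 2.31 CPM in UUO libraries and Ccnb1 at 0.518 to 2.40 CPM and 0.378 to 0.675 CPM. Without library Ctrl the log2 fold change of Spc24 was -0.43 and no longer passed the test, and its call was also lost without UIR2 or any UUO library. That of Ccnb1 was lost without N2, AN1, AN2 or UUO2. Other genes of these roles did not pass the test. The log2 fold change in UIR and UUO was 1.01 and 0.90 for the centromere gene Cenpa, -0.36 and 0.27 for Cenpe, -0.70 and -1.05 for the passenger gene Birc5 and -1.45 and -1.27 for the central spindle gene Prc1.

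The genes most used to mark dividing cells did not pass the test in the tubule. Mki67 stood at 19.7, 1.55, 0, 0.417 and 0 CPM in Ctrl, N1, N2, AN1 and AN2, at 1.72 to 2.22 CPM in UIR and at 0.965 to 3.73 CPM in UUO libraries. Its log2 fold change was -1.55 (SE 0.96) in UIR and -1.45 (SE 0.98) in UUO with all libraries, and 1.97 and 2.06 without Ctrl. Top2a, the topoisomerase that disentangles chromosomes, stood at 23.4 CPM in Ctrl, at 0.480 to 1.04 CPM in the other controls, at 0.726 to 2.72 CPM in UIR and at 1.35 to 2.90 CPM in UUO libraries, and Cdk1, the kinase that starts mitosis, was seen in the controls only in Ctrl, at 4.86 CPM, beside 0.726 to 2.14 CPM in the injured libraries. The direction of these 3 genes in the tubule therefore turned on library Ctrl. Spc25, Rrm2 and Stmn1 kept their call without it. No member passed the test between UUO and UIR (edgeR; 1 member at an unadjusted p under 0.05, 0 by DESeq2), beside 1.26% of all genes.

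The levels were also taken by segment of the tubule. Loop of Henle cells lay in different clusters by group, with 270 of 273 control cells in a cluster of a median of 5170 UMIs per cell and 1149 of 1244 UIR and 719 of 727 UUO cells in one of 13690 UMIs. Intercalated cells lay in 1 cluster in all groups. Spc25 averaged 34.8 CPM in control, 10.4 CPM in UIR and 8.06 CPM in UUO loop of Henle cells, and 31.8, 13.1 and 14.8 CPM in intercalated cells. Stmn1 averaged 4.97, 73.0 and 93.2 CPM in the loop of Henle and 8.10, 27.9 and 35.0 CPM in intercalated cells. Mcm7 averaged 8.15, 26.0 and 33.8 CPM in the loop of Henle, but 10.5 CPM in both control and UIR principal cells. Rrm2 averaged 10.4 CPM in control and 3.58 CPM in UIR principal cells. The makeup of the pool differed between groups as well. Distal tubule cells were 16.6% of it in control, 0.750% in UIR and 0.387% in UUO kidneys. Clusters that could be given no segment name were 29.1%, 55.7% and 57.1%. These clusters scored highest for markers of failed-repair cells. The largest had a median of 839 UMIs per cell and was led by Calb1 and S100g, which the distal tubule also expresses, and no name was given to any of them. When they were left out, 7 members passed the test in UIR and 7 in UUO, beside 41% and 47.7% of all genes. Within intercalated cells alone, Spc25 and Stmn1 passed it in UIR (log2 fold changes of -1.43 and 1.39), and Spc25, Stmn1, Mcm7 and Kif23 in UUO (-1.49, 1.63, 1.2 and -1.83), beside 13.1% and 25.1% of all genes.

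**Figure D2:**
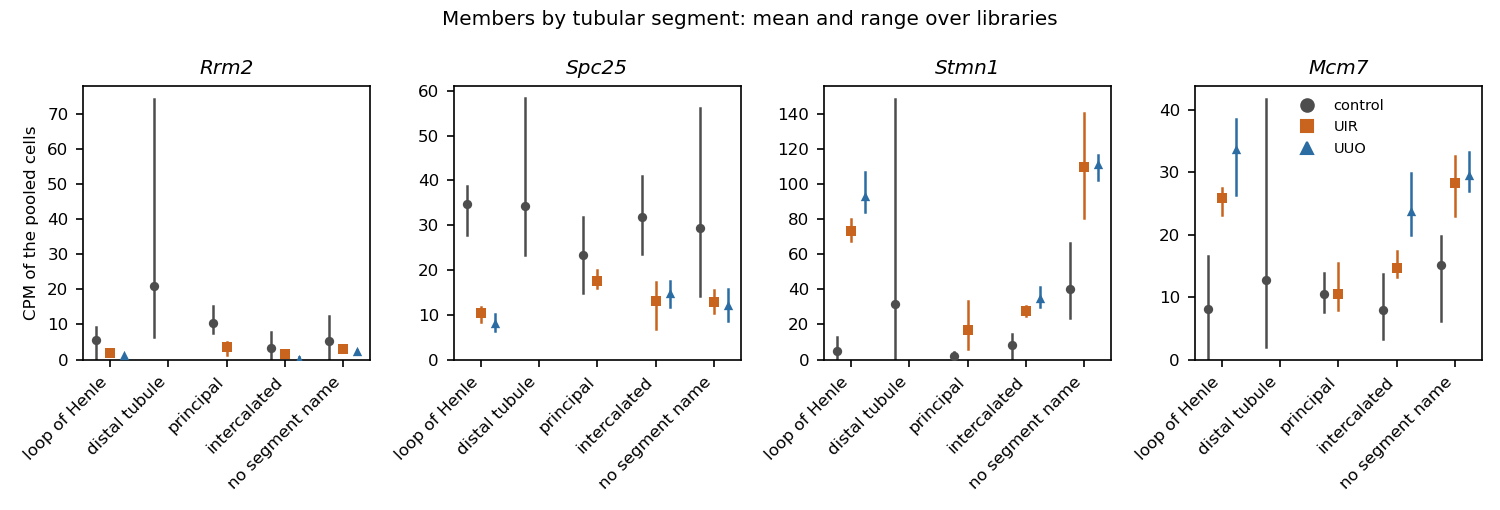
Rrm2, Spc25, Stmn1 and Mcm7 by tubular segment. The symbol is the mean and the bar the lowest to highest library of each group (up to 5 control, 3 UIR, 3 UUO), and the y axis is CPM of the pooled cells on a linear scale from 0. Groups with too few cells have no symbol. Spc25 is lower and Stmn1 higher in the injured loop of Henle and intercalated cells with no overlap of the ranges, although control and injured loop of Henle cells lie mostly in different clusters, whereas Mcm7 averages 10.5 CPM in control and in UIR principal cells.

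The promoters of mitotic and of replication genes are known to carry different control elements. In the tubule the members that fell were mostly mitotic genes, and those that rose mostly replication genes. RefSeq promoter windows on GRCm38.p6, from 250 bases before to 50 after the annotated start, were at hand for 35 of the 43 members. The windows of Ccne2, Tpx2, Stmn1, Mcm4, Kif20a, Aurkb, Spc24 and Ccna2 were not analysed here. Each window was searched on both strands for the cell cycle homology region (CHR; the letters TTTGAA or the letters TTCGAA), the CCAAT box (CCAAT) and the E2F site (TTTCCCG and, with other letters in the middle, TTTGGCG or TTTCGCG or TTTGCCG). The 4 mitotic windows below are of Spc25 and Kif23, which fell, and of the mitotic cyclin Ccnb2 and the anaphase activator Cdc20, which did not pass the test in any pool. The other 2 are of the helicase subunits Mcm6 and Mcm7, which rose. They are printed 5′ to 3′ from 250 bases before to 30 bases after the start, with the matches in capitals.
Spc25 (chr2:69206184-69206463, minus strand): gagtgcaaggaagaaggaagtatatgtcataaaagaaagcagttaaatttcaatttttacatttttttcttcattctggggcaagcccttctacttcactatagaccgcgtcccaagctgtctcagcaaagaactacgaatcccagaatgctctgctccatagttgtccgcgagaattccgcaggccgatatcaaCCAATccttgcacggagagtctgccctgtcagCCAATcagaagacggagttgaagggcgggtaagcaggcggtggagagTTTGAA
Kif23 (chr9:61946770-61947049, minus strand): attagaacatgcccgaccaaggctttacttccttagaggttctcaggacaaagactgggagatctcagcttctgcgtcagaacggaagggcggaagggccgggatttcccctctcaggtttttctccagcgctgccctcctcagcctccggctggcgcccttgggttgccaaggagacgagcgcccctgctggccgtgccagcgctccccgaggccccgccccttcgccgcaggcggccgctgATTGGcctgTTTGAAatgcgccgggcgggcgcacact
Ccnb2 (chr9:70421525-70421804, minus strand): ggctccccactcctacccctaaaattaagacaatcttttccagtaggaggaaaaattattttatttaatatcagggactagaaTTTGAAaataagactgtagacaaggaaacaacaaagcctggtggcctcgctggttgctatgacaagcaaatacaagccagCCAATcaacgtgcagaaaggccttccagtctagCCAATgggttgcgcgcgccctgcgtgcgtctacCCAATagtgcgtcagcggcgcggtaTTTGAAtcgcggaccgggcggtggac
Cdc20 (chr4:118437314-118437593, minus strand): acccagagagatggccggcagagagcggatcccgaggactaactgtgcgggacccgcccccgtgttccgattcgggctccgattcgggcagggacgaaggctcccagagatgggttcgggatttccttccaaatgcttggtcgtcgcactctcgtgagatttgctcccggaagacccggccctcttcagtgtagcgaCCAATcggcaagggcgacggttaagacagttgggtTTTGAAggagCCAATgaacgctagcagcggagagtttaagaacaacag
Mcm6 (chr1:128359676-128359955, minus strand): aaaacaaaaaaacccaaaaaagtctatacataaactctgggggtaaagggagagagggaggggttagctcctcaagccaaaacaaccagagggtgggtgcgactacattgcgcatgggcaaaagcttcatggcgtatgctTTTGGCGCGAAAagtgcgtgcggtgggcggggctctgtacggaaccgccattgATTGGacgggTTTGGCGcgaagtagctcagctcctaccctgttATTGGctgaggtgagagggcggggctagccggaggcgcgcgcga
Mcm7 (chr5:138171854-138172133, minus strand): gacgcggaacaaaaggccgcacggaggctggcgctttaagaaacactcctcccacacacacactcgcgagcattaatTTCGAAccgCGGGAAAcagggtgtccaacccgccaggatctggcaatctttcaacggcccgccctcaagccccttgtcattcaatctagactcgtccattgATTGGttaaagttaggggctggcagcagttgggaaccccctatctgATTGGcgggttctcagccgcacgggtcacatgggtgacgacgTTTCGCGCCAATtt
A CHR letter match lay in 18 of 22 mitotic windows (81.8%), in 2 of 12 replication windows (16.7%) and in 21.7% of the windows of all 27025 genes. A CCAAT box lay in 90.9% of mitotic, 75% of replication and 41.1% of all windows. An E2F match lay in 18.2% of mitotic, 41.7% of replication and 7.65% of all windows. Both CHR and CCAAT lay in 1 window for 81.8% of the mitotic members and for 8.61% of all genes. In the windows shown, Spc25, Kif23, Ccnb2 and Cdc20 hold CHR and CCAAT matches and no E2F match, Mcm6 holds CCAAT and E2F matches and no CHR match, and Mcm7 holds all 3. In Mcm6 a forward and a reverse E2F match overlap. Letter matches are a description of the sequence and were not set against binding data. The directions in the tubule did not follow the motif classes throughout. Of the 4 members that fell and have a window, Spc25 and Kif23 hold a CHR match, and Ccnb1 and Rrm2 hold a CCAAT box alone. Of those that rose, Pcna has no E2F match, and Mcm7 has a CHR match in the window shown. Mcm7 has a second annotated start, whose window holds 1 CCAAT box and neither of the others. A gene with more than 1 window was counted as holding a motif if any of them did.

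Beyond the members, a list of 73 other cell cycle genes and 16 genes of cell cycle entry and arrest was followed in the same fits. In the tubule 39 of the former were tested, of which 7 rose and 4 fell in UIR and 16 rose and 4 fell in UUO. These were 28.2% and 51.3% of those tested, beside 38.2% and 46.5% of all genes. Tubb5, a tubulin subunit, stood at 35.0 to 60.9 CPM in control, 166 to 204 CPM in UIR and 222 to 251 CPM in UUO libraries, and rose by 1.74 (SE 0.14) and 2.04 (SE 0.14) on the log2 scale. Gmnn, the inhibitor of a repeat round of replication, stood at 26.4 to 33.3 CPM in control and at 16.7 to 20.5 CPM in injured libraries and fell by 0.93 (SE 0.12) and 1.07 (SE 0.12). The mitotic phosphatase gene Cdc25b rose in both models, by 0.79 in UIR, and the transcription factor gene E2f2 fell in both, by 2.50 in UUO.

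All 16 entry and arrest genes were tested in the tubule, and 7 rose and 5 fell in UIR and 7 rose and 6 fell in UUO. These were 75% and 81.25% of the list, beside 38.2% and 46.5% of all genes. Cdkn1a, which encodes the arrest protein p21, stood at 6.26 to 35.6 CPM in control, at 134 to 164 CPM in UIR and at 203 to 209 CPM in UUO libraries. It rose by 2.83 (SE 0.29, adjusted p = 5.95e-06) and 3.29 (SE 0.29, adjusted p = 8.53e-07) on the log2 scale. Among the D cyclins, which drive entry, Ccnd1 stood at 223 to 318 CPM in control and 67.4 to 104 CPM in injured libraries and fell by 2.08 in UIR and by 2.10 in UUO. Ccnd2 stood at 0.518 to 5.82 CPM in control and at 24.5 to 49.3 CPM in injured libraries and rose by 3.57 in UIR and 3.48 in UUO, and the kinase gene Cdk6 rose by 1.27 and 1.59. Cdkn2a, singled out after its values were seen, had no UMI in the control pool, beside 297 in UIR and 127 in UUO, which made it at least 26.3-fold and 17.7-fold higher, with the control set at 3 counts in all its libraries together.

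Proximal tubule cells showed a single lower member in UIR and 4 higher members in UUO, and the latter rested on few cells. The pool held 7090 control and 2626 UIR cells, but 190 UUO cells. Of the 43 members, 40 were tested. In UIR 0 were higher and 1 lower, beside 12.2% of all genes called and 4.01% called lower. In UUO 4 were higher and 0 lower (10% of the tested members), beside 7.66% of all genes called and 4.45% called higher. The median log2 fold change of the members was -0.37 in UIR and 1.5 in UUO, beside -0.01 and -0.09 over all genes.

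Spc25 was the member that changed in UIR. It stood at 20.7, 21.8, 30.7, 19.8 and 17.7 CPM in Ctrl, N1, N2, AN1 and AN2 and at 12.6, 12.7 and 9.67 CPM in the UIR libraries, with no overlap, and fell by 0.88 on the log2 scale (SE 0.22, adjusted p = 0.0106). In the UUO proximal tubule it stood at 99.9, 0 and 18.5 CPM and did not pass the test. Its call in UIR was lost without UIR2.

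The 4 genes called in UUO were Rrm2, 2810417H13Rik, Stmn1 and Hmgb2. Rrm2 stood at 1.07 to 4.70 CPM in control libraries and at 333, 57.1 and 1.54 CPM in UUO, UUO1 and UUO2, with 25 UMIs in all of these, and rose by 4.33 (SE 0.99, adjusted p = 0.00958) on the log2 scale. 2810417H13Rik, annotated as the Pcna-associated factor Pclaf, stood at 0.641 to 4.58 CPM in control and at 217, 14.3 and 4.63 CPM in UUO libraries and rose by 3.30. Stmn1 stood at 49.5 to 75.0 CPM in control and at 783, 399 and 64.8 CPM in UUO libraries and rose by 1.54. Hmgb2 stood at 42.6 to 61.5 CPM in control and at 633, 157 and 97.2 CPM in UUO libraries and rose by 1.48. In each of the 4 the library labelled UUO was the highest, and its pool was 56 cells with 60047 UMIs, 14 of which carried at least 3 mitotic members. Without this library none of the members was called, and without UUO2 12 were. The call of Stmn1 was also lost without UUO1, and that of 2810417H13Rik without N1, AN2 or UUO1. No member was called with a minimum of 1000 UMIs per cell, where Rrm2 was at -7.36. The summed level of the 11 macrophage markers was 148 to 1182 CPM in the UUO proximal tubule pools and 20.8 to 23.9 CPM in the control pools. That of the 12 stromal markers was 24.7 to 299.8 CPM and 2.84 to 8.01 CPM, that of the 9 endothelial markers 14.3 to 174 CPM and 4.38 to 8.54 CPM, and that of the 13 markers of the proximal tubule itself 4394 to 10020 CPM and 14540 to 16360 CPM. Their part in the result was not tested.

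Mki67 in the proximal tubule was high in 2 control libraries, at 17 CPM in Ctrl and 21.2 CPM in N2 beside 0.534 to 2.30 CPM in the other 3. It stood at 0.585, 5.86 and 8.16 CPM in UIR and at 167, 14.3 and 3.09 CPM in UUO libraries. The 202 Mki67 UMIs of Ctrl lay in 16 of its 1724 cells, and 3 cells held 88.6% of them. Mki67, Top2a, Cdk1 and Pcna did not pass the test in either model. Ccnb1 was too rare to be tested. Between UUO and UIR 0 members passed it (edgeR; 13 at an unadjusted p under 0.05, 12 by DESeq2), beside 0.0938% of all genes.

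Of the other cell cycle genes 46 were tested in the proximal tubule, and 0 changed in UIR (3 at an unadjusted p under 0.05) while 8 rose and 1 fell in UUO. The shares called were 0% and 19.6%, beside 12.2% and 7.66% of all genes. Tuba1b, Tubb5 and Lig1 rose by 2.09, 2.19 and 3.33 on the log2 scale in UUO and were highest in the library labelled UUO, at 583, 666 and 167 CPM. Of 14 entry and arrest genes tested, 4 rose in UIR and 3 rose in UUO, and none fell. These were 28.6% and 21.4% of those tested, beside 12.2% and 7.66% of all genes. Ccnd2 rose by 3.78 (SE 0.63) in UIR from 0.0982 to 0.406 CPM in control to 3.02 to 3.8 CPM, and the Cdk inhibitor gene Cdkn1c rose by 1.49 (SE 0.27) from 1.49 to 2.61 CPM to 4.68 to 7.85 CPM. Cdkn2c, another Cdk inhibitor gene, rose by 0.71 in UIR, and Ccnd1 rose by 1.17 in UUO proximal tubule. Markers of other cells were higher in the UIR than in the control pools as well, at 125 to 173 CPM for the 11 macrophage, 15.2 to 20.5 CPM for the 8 T/NK, 18.1 to 29.9 CPM for the 9 endothelial and 18.4 to 32.2 CPM for the 12 stromal markers, beside 20.8 to 23.9, 0.406 to 0.534, 4.38 to 8.54 and 2.84 to 8.01 CPM in control. Their part in these rises was not tested.

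**Figure D3:**
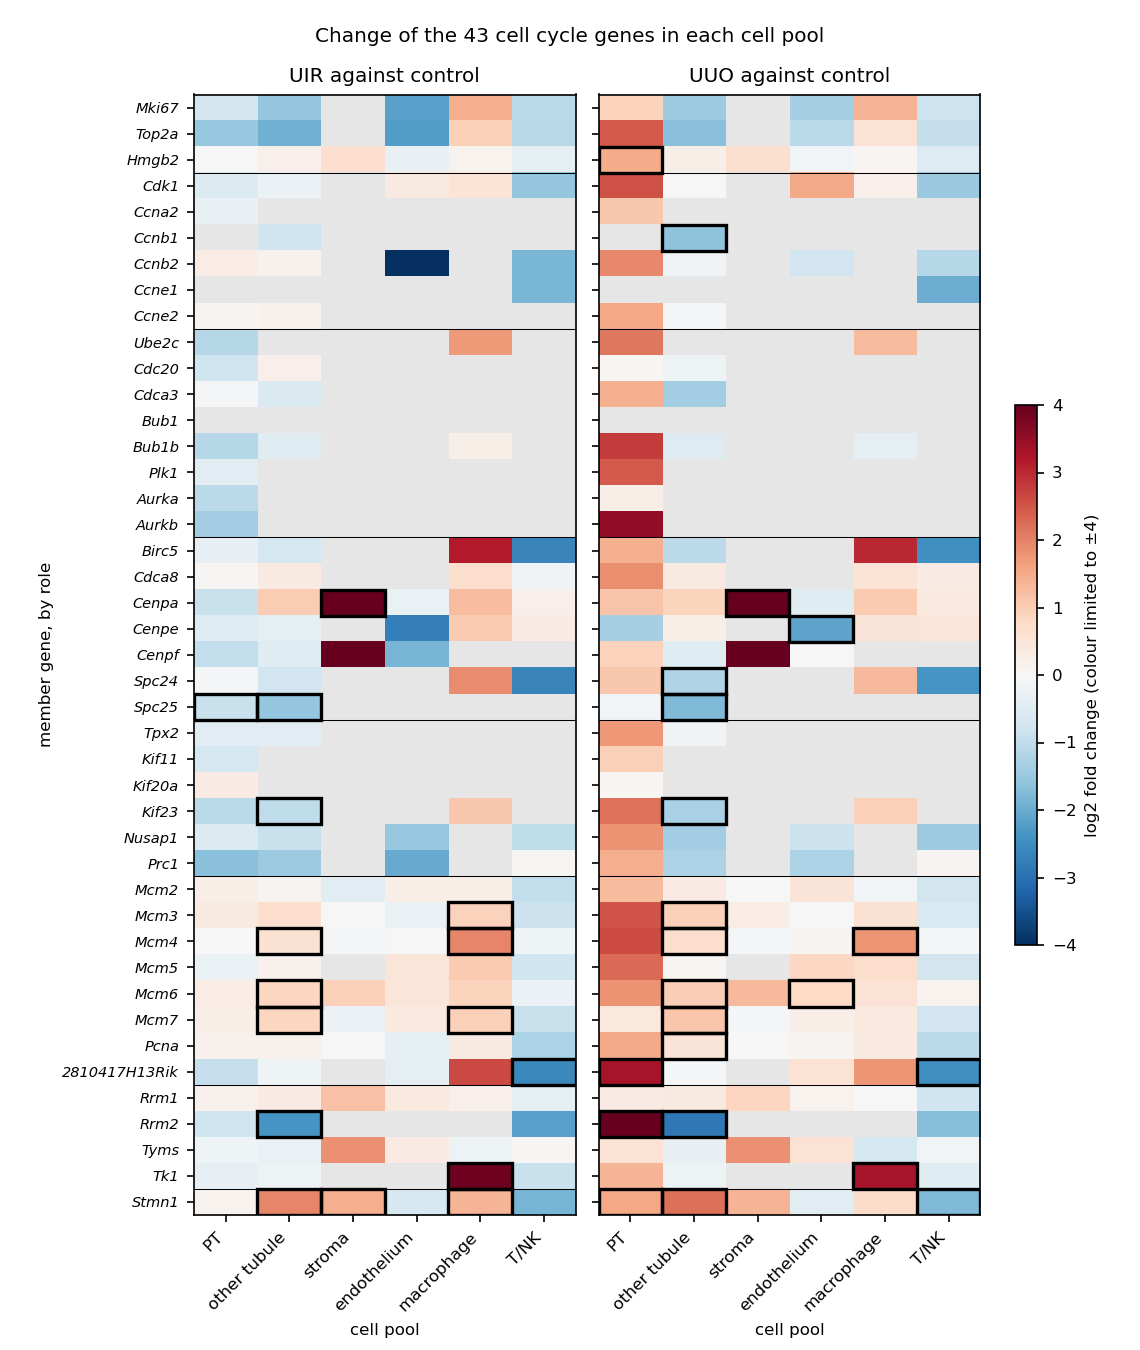
Log2 fold change of the 43 members in 6 cell pools, for UIR (left) and UUO (right) against control. Rows are members ordered by role, red is higher and blue lower in the injured kidneys with the colour limited at 4, grey was not tested, and black frames mark an adjusted p under 0.05. In the tubule frames in both models fall on Mcm4, Mcm6, Mcm7 and Stmn1 in red and on Rrm2, Spc25 and Kif23 in blue, and Mki67 and Top2a have no frame in any pool.

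Against the controls N1, N2 and AN1 stromal cells showed higher Cenpa, which encodes the centromere histone, in both models and higher Stmn1 in UIR. The call of Cenpa leaves out the cells of Ctrl and AN2, which held most of its control UMIs. With them the rise does not hold, as given below. There were 98 control, 849 UIR and 848 UUO stromal cells. The tested controls were N1, N2 and AN1 only, with 25, 37 and 20 cells, since Ctrl and AN2 had too few, with 13 and 3. The control and the injured cells lay mostly in different clusters, with 79 of the 98 control but 77 of the UIR and 172 of the UUO cells in a cluster led by Sfrp2, Itga8 and Ptn. The summed level of the 12 stromal markers was 2249 to 2870 CPM in control, 15270 to 18340 CPM in UIR and 19000 to 23410 CPM in UUO libraries, and that of the 9 endothelial markers 967 to 1420 CPM, 177 to 370 CPM and 217 to 276 CPM. That of the 11 macrophage markers was 0 to 22.7 CPM, with 10 of them at 0, 159 to 314 CPM and 266.5 to 363 CPM. The part of these differences in the results was not tested. Of the 43 members, 12 were tested. In UIR 2 were higher and 0 lower, beside 16.2% of all genes called and 10.5% called higher. In UUO 1 was higher and 0 lower, beside 16.5% and 11%. The median log2 fold change of the members was 0.81 and 0.76, beside 0.15 and 0.16 over all genes.

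Cenpa stood at 0, 0 and 8.59 CPM in N1, N2 and AN1. It stood at 78.6, 77.1 and 108 CPM in the UIR and at 60.2, 30.6 and 59.2 CPM in the UUO libraries. The injured libraries were all above these controls, in which it had 1 UMI. It was called in UIR (adjusted p = 0.000220) and in UUO (adjusted p = 0.00274). Against N1, N2 and AN1 the ratio of pooled levels was 36.0 in UIR, with a 95% counting interval of 6.43 to 1424. In UUO it was 20.1, with one of 3.58 to 797. Both ratios leave out the stromal cells of Ctrl and AN2, which held nearly all control Cenpa UMIs at a level above every injured library. With these 13 and 3 cells the pooled control level would be near that of UIR and above that of UUO. The rises therefore rest on N1, N2 and AN1 and do not hold against all control cells. A contractile cluster led by Ren1, Rgs5 and Myh11 held 86.8% of the stromal Cenpa UMIs, 279 of its 496 cells had at least 1, and it held 5 Mki67 UMIs. This cluster had 7 control, 333 UIR and 156 UUO cells. A cluster led by Col3a1, Col1a1 and Dcn, with 12, 377 and 484 cells, held 11.6% of the Cenpa UMIs and 43 Mki67 UMIs. Without the contractile cluster Cenpa was not called in either model, at log2 fold changes of 2.33 and 2.6. The direction also turned on the filters. Without doublet removal Cenpa was at -1.07 in UIR and -1.88 in UUO, and in UUO it was at -0.086 with a mitochondrial limit of 50% and at -0.47 with at least 1000 UMIs per cell.

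Stmn1 in stroma stood at 18.6, 28.4 and 8.59 CPM in control, at 60.1, 40.2 and 50.4 CPM in UIR and at 59.4, 44.0 and 37.1 CPM in UUO libraries. The groups did not overlap. It rose by 1.45 (SE 0.46, adjusted p = 0.0383) in UIR, a call that was lost without any 1 of the 3 control libraries or without the library labelled UIR. In UUO the log2 fold change was 1.35 (SE 0.46, adjusted p = 0.0544), and between the models it was -0.10. Without the contractile cluster it passed the test in both models, at 1.98 and 1.61. Mki67 had no UMI in the control stroma, 34 in UIR and 32 in UUO, and was too rare to be tested, and in UIR2 1 cell held 20 of 22. Tyms at 0 to 8.59 CPM in control stood at 10.7 to 23.1 CPM in injured libraries, and Pcna at 8.59 to 28.4 CPM and 17.1 to 27.7 CPM, and neither passed the test, nor did Hmgb2. Between UUO and UIR 0 members passed it (edgeR; 1 at an unadjusted p under 0.05, 0 by DESeq2), beside 1.3% of all genes.

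Of the other cell cycle genes 19 were tested in stroma, of which 2 rose in UIR and 1 in UUO (10.5% and 5.26%, beside 16.2% and 16.5% of all genes). Tubb5 rose by 1.14 (SE 0.25) in each model, from 103 to 186 CPM in control to 235 to 382 CPM. The histone gene H2afx rose in UIR, with 1 UMI in N1, N2 and AN1 together and a ratio of 9.85 (95% counting interval 1.74 to 392). Of 15 entry and arrest genes, 4 rose in UIR, and 4 rose and 1 fell in UUO. These were 26.7% and 33.3% of those tested, beside 16.2% and 16.5% of all genes. Cdkn1a had no UMI in the stroma of N1, N2 and AN1. With these controls set at 3 counts together, it was at least 6.90-fold higher in UIR and at least 7.83-fold higher in UUO. The stromal cells of Ctrl and AN2 were left out of these ratios. Cdkn1c rose by 2.02 and 2.26 and Cdk6 by 2.50 and 2.21 on the log2 scale.

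Endothelial cells showed few changes among the members. The pool held 664 control, 1631 UIR and 2025 UUO cells, and 21 members were tested. In UIR 0 were called (edgeR; 3 at an unadjusted p under 0.05, 0 by DESeq2), beside 1.82% of all genes. In UUO 1 was higher and 1 lower, beside 11.9% of all genes, with 5.56% higher and 6.36% lower. The median log2 fold change of the members was -0.30 in UIR and 0.00 in UUO, beside 0.00 and 0.01 over all genes. Mcm6 stood at 5.12 to 21.2 CPM in control and at 24.3, 30.3 and 27.3 CPM in UUO libraries, with no overlap, and rose by 0.79 (SE 0.23, adjusted p = 0.0332). Cenpe, a kinetochore motor, stood at 6.95, 4.33, 1.71, 4.25 and 8.10 CPM in control and at 0.552, 0.926 and 2.30 CPM in UUO libraries, with overlap, and fell by 2.10 (SE 0.64, adjusted p = 0.0362). The call of Mcm6 was lost without Ctrl, N2, AN2, UUO1 or UUO2, and that of Cenpe without Ctrl, N1, AN1, AN2, UIR2, UUO or UUO1. Without doublet removal the log2 fold change of Cenpe was 0.35. In the same pools the 7 dendritic cell markers summed to 19.8 to 54 CPM in control, with 5 of them at 0, and 113 to 153 CPM in UUO libraries, the 11 macrophage markers to 155 to 254 CPM and 293 to 398 CPM, and the 21 tubular markers to 118 to 483 CPM and 41 to 69 CPM. Their part in the result was not tested. Cdk1 stood at 0 to 4.05 CPM in control and at 4.41 to 8.10 CPM in UUO libraries and did not pass the test (adjusted p = 0.0748).

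Mki67 in endothelium stood at 58.7 CPM in AN2 and at 2.89 CPM or less in the other control libraries, and Top2a at 66.8 CPM in AN2 and at 1.54 CPM or less. Neither passed the test in either model, nor did Pcna, Tyms, Mcm5, Stmn1 or Hmgb2. Between UUO and UIR 0 members passed it (edgeR; 3 at an unadjusted p under 0.05, 0 by DESeq2), beside 2.96% of all genes. Of 30 other cell cycle genes tested H2afx alone was called, lower in UUO by 0.73 (3.33% of those tested, beside 11.9% of all genes). Of 14 entry and arrest genes Ccnd2 alone was called, in UUO against control and against UIR (7.14% in each, beside 11.9% and 2.96% of all genes). It stood at 330 to 422 CPM in control, 283 to 377 CPM in UIR and 205 to 271 CPM in UUO libraries and fell by 0.72 (SE 0.13) in UUO against control and by 0.52 (SE 0.14) against UIR.

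In macrophages the members that changed all rose, in both models. The pool held 406 control, 3876 UIR and 4549 UUO cells, and 24 members were tested. In UIR 5 were higher and 0 lower (20.8% of the tested members), beside 6.3% of all genes called and 3.62% called higher. In UUO 2 were higher and 0 lower (8.33%), beside 10.7% and 5.56%. The share of members that rose was above the background in UIR and near it in UUO, where it rests on 2 genes. In UIR it rests on 5 genes, of which Tk1 had 1 control UMI and Mcm7 lost its call without any 1 library. Without the shallow cluster Mcm4 alone of these 5 kept its call in UIR. Without the cells with the mitotic signature 2 members were called in UIR, as given below. The summed level of the 12 stromal markers was 7.95 to 15.4 CPM in control, with 5 of them at 0, 56.6 to 66 CPM in UIR and 76.2 to 113 CPM in UUO macrophages. That of the 8 T/NK markers was 0 to 4.18 CPM, with 6 at 0, 13.7 to 16.5 CPM and 10.7 to 29.9 CPM, and that of the 13 proximal tubule markers 467 to 934 CPM, 197 to 391 CPM and 43.7 to 61.1 CPM. Their part in the results was not tested. The median log2 fold change of the members was 1.0 and 0.58, beside 0.03 and 0.04 over all genes.

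Mcm4 passed the test in both models. It stood at 3.48, 3.97, 10.2, 4.19 and 3.09 CPM in Ctrl, N1, N2, AN1 and AN2, at 23.1, 15.4 and 17.9 CPM in UIR and at 15.9, 15.9 and 18.8 CPM in UUO libraries. The groups did not overlap, and it rose by 1.97 (SE 0.43, adjusted p = 0.00802) and 1.77 (SE 0.44, adjusted p = 0.0106). Tk1, the thymidine kinase, had 1 UMI in the control macrophages and stood at 8.21 to 14.4 CPM in UIR and 6.88 to 10.2 CPM in UUO libraries. Its ratio of pooled levels was 15.5 in UIR (95% counting interval 2.74 to 616) and 11 in UUO (1.94 to 436). Tk1 overlaps Afmid on the other strand, and whether any of its reads were those of Afmid was not tested. Mcm3, Mcm7 and Stmn1 passed the test in UIR only. Stmn1 stood at 12.6 to 35.5 CPM in control, 46.6 to 74.0 CPM in UIR and 37.6 to 47.0 CPM in UUO libraries and rose by 1.35 (SE 0.26, adjusted p = 0.00214) in UIR. Mcm3 stood at 20.3 to 31.4 CPM in control and 45 to 57.5 CPM in UIR libraries and rose by 0.93 (SE 0.23), and Mcm7 at 10.5 to 16.7 CPM and 25.0 to 34.9 CPM and rose by 0.97 (SE 0.29, adjusted p = 0.0482). The call of Mcm7 in UIR was lost without any 1 of the 11 libraries, and that of Tk1 in UUO without Ctrl, N1, AN1, AN2 or UUO2.

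Between the models 2 members differed in macrophages, 0 higher and 2 lower in UUO, beside 3.52% of all genes called and 2.44% called lower. Relative to UIR, Stmn1 fell by 0.62 (adjusted p = 0.0223) and Mcm7, at 18 to 23.7 CPM in UUO and 25.0 to 34.9 CPM in UIR libraries, by 0.58 (adjusted p = 0.0476) on the log2 scale. The lowest UIR and the highest UUO library of Stmn1 were at 46.6 and 47.0 CPM. The call of Stmn1 was lost without any 1 of UIR, UIR2, UUO and UUO1, and that of Mcm7 without any 1 of the libraries except Ctrl and UUO2. Mki67 stood at 0 to 8.37 CPM in control, 6.6 to 19.9 CPM in UIR and 10.2 to 14 CPM in UUO macrophages. Its log2 fold changes of 1.45 and 1.35 did not pass the test, with 6 UMIs in the controls. Top2a, Cdk1, Pcna, Mcm5, Tyms and Hmgb2 did not pass it either. A shallow macrophage cluster of 5647 cells had a median of 799 UMIs. Of the 406 control macrophages it held 135, of the 3876 in UIR 2543 and of the 4549 in UUO 2969, so that the groups drew on different clusters. Without it 2 members were called in UIR (Cenpa and Mcm4, at 1.61 and 1.82) and Mcm4 alone in UUO, beside 6.3% and 9.83% of all genes. Without the cells that carried at least 3 mitotic members 2 were called in UIR and 1 in UUO, beside 5.65% and 9.6%. Between the models 0 members were called in either of these 2 alternatives.

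Of 34 other cell cycle genes tested in macrophages 1 rose in UIR and 2 in UUO (2.94% and 5.88%, beside 6.3% and 10.7% of all genes). Tubb5 rose by 1.02 and 0.92 and Tuba1b by 0.76 in UUO. Of 14 entry and arrest genes 3 fell in UIR and 4 in UUO, in contrast to the helicase. These were 21.4% and 28.6% of those tested, beside 6.3% and 10.7% of all genes. Cdk6 stood at 143 to 195 CPM in control, 74.5 to 89.1 CPM in UIR and 64.3 to 99.7 CPM in UUO libraries and fell by 1.11 (SE 0.16) and 1.21 (SE 0.16). Ccnd2 fell by 1.16 and 1.01 and Ccnd1 by 0.46 and 0.78.

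T cells and NK cells showed lower members in both models, and the calls rested on the control libraries AN1 and AN2. The pool held 125 control, 2072 UIR and 1603 UUO cells, and 26 members were tested. In UIR 0 were higher and 1 lower, beside 0.514% of all genes called and 0.237% called lower. In UUO 0 were higher and 2 lower, beside 2.34% and 1.5%. The median log2 fold change of the members was -0.94 in UIR and -0.78 in UUO, beside 0.11 and 0.12 over all genes. 2810417H13Rik stood at 8.10, 7.93, 0, 114 and 175 CPM in Ctrl, N1, N2, AN1 and AN2, at 3.03 to 18 CPM in UIR and at 6.93 to 20.1 CPM in UUO libraries. Its level was high in AN1 and AN2 alone, and it fell by 2.59 (SE 0.62, adjusted p = 0.0409) in UIR and by 2.45 (SE 0.61, adjusted p = 0.0195) in UUO. Stmn1 stood at 24.3, 31.7, 24.9, 96.4 and 273 CPM in the controls and 21.2 to 39.0 CPM in UUO libraries, with overlap, and fell by 1.77 (SE 0.46). AN1 and AN2 held 24 and 28 T/NK cells. Without AN1 0 members were called in either model, and without AN2 likewise. The call of Stmn1 was also lost without UUO1 or UUO2, and that of 2810417H13Rik without UUO2 in either model and without UIR1 in UIR. Against the N controls alone the log2 fold change of 2810417H13Rik was 1.25 in UIR and 1.39 in UUO, and against Ctrl alone 0.60 and 0.74, so that the direction did not hold against these control sets. The 12 stromal markers were all at 0 in the control pools and summed to 26.6 to 39.5 CPM in UIR and 28.5 to 75.5 CPM in UUO, and the 13 proximal tubule markers to 280 to 769 CPM in control, 161 to 400.4 CPM in UIR and 15.4 to 42.2 CPM in UUO. Their part in the result was not tested.

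Mki67 in T/NK cells stood at 0, 0, 24.9, 17.5 and 143 CPM in the controls, at 12.7 to 22.5 CPM in UIR and at 21.5 to 25.0 CPM in UUO libraries, and did not pass the test. Neither did Top2a, Cdk1, Pcna, Mcm5, Rrm2, Tyms or Hmgb2. Between UUO and UIR 0 members passed it (edgeR; 1 at an unadjusted p under 0.05, 0 by DESeq2), beside 1.72% of all genes. None of the 32 other cell cycle genes tested was called in either model, and of 14 entry and arrest genes Cdk6 rose in UUO by 1.6 (SE 0.39). That was 7.14% of those tested, beside 2.34% of all genes.

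Across the pools 27 of the 43 members were not called in any comparison. These were the markers Mki67 and Top2a, Cdk1 and the cyclins Ccna2, Ccnb2, Ccne1 and Ccne2, the mitotic kinases, checkpoint and proteolysis genes Plk1, Aurka, Aurkb, Bub1, Bub1b, Ube2c, Cdc20 and Cdca3, the passengers and kinetochore genes Birc5, Cdca8 and Cenpf, the spindle genes Tpx2, Kif11, Kif20a, Nusap1 and Prc1, and Mcm2, Mcm5, Rrm1 and Tyms. Of these Bub1 was too rare to be tested in any pool. The members tested ranged from 12 in stroma to 40 in the proximal tubule. The share of all genes called in no comparison was not taken, so that the count of 27 is not a result about the members. The summed level of the 27 mitotic members in macrophages was 45.3 to 99.4 CPM in control, 121 to 174 CPM in UIR and 115 to 144 CPM in UUO libraries, which did not overlap. In the tubule it was 45 to 182 CPM, 46.9 to 50.8 CPM and 39.4 to 53.4 CPM. The summed level of the 14 replication members in the tubule was 86 to 161 CPM in control, 143 to 156 CPM in UIR and 164 to 172 CPM in UUO libraries. These sums are descriptions, since few genes carry most of them.

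**Figure D4:**
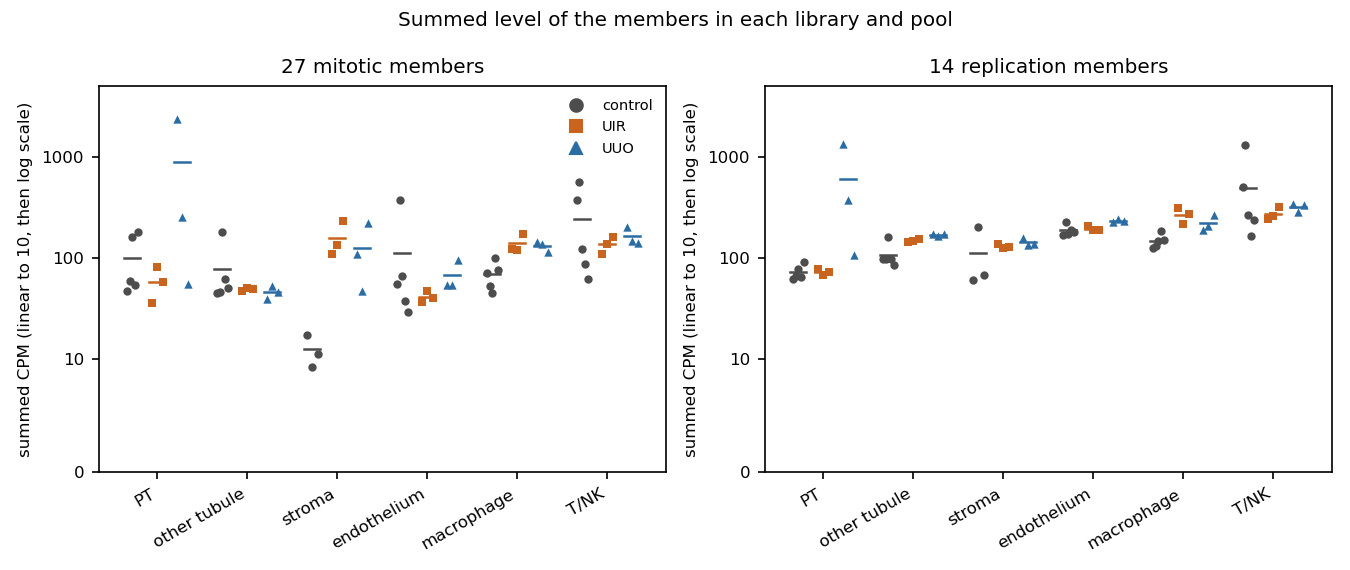
Summed CPM of the 27 mitotic (left) and 14 replication members (right) in each pool. Each point is 1 library, lines are group means, and the y axis is linear up to 10 and logarithmic above it. The injured macrophage libraries lie above the controls for both sums, and the UUO proximal tubule pools spread widely with the library labelled UUO highest.

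The effect of injury on a member was also compared between pools, in 1 model with library as a block. Each pool was set against the macrophages. In UIR the effect on Spc25 was lower in the tubule than in macrophages by 2.92 on the log2 scale (SE 0.88, adjusted p = 0.0182), beside 12.3% of all genes that differed in that comparison. In UUO it was lower by 2.64, and that on Rrm2 by 4.56 (SE 1.59, adjusted p = 0.0420), beside 15.5%. In UIR the effect on Tk1 was lower by 4.24 in the tubule and by 4.33 in the proximal tubule (beside 6.18% there), and that on Mcm4 by 2.02 in the proximal tubule and 2.11 in the endothelium (beside 2.15%). The macrophage side of these values rests on few control UMIs, namely 1 of Tk1, 1 of Rrm2, 2 of Spc25 and 6 of Mcm4. The effect on Pcna was lower in T/NK cells by 1.73 in UIR and by 1.61 in UUO, beside 0.568% and 0.999%. The control library AN2 stood at 169 CPM of Pcna in T/NK cells and the others at 31.7 to 61.3 CPM, and within T/NK cells Pcna did not pass the test.

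The share of cells with an Mki67 or a Top2a UMI was compared after thinning every cell to 1000 UMIs. None of the 24 tests reached an adjusted p under 0.05 (exact two-sided permutation test over libraries). The smallest p that the design allows is 0.0179 for 3 against 5 libraries, 0.0476 for the 2 UUO proximal tubule libraries with enough cells and 0.1 for the 2 control stroma libraries, so that a single test cannot pass the adjustment over 24. In macrophages 0.538% ± 0.737 (SD, n = 5) of control, 1.39% ± 0.492 (SD, n = 3) of UIR and 1.55% ± 0.383 (SD, n = 3) of UUO cells had a Top2a UMI, with an exact permutation p of 0.161 and 0.0714. In the tubule Mki67 was seen in 0.217% ± 0.303 (SD, n = 5) of control, 0.420% ± 0.0307 (SD, n = 3) of UIR and 0.626% ± 1.08 (SD, n = 3) of UUO cells, with 15 of 799 cells in UUO1 and 0 in UUO and UUO2. The proximal tubule had the 2 largest differences of the 24, at 0.277% of control and 7.54% of UUO cells for Mki67 and 0.239% and 15.1% for Top2a. Both reached the smallest exact permutation p of 0.0476 (adjusted p = 0.571), on 22 cells of the library labelled UUO and 69 of UUO2. Podocytes, which rarely divide, gave a mean Mki67 share of 0% in control, 0.306% in UIR and 7.92% in UUO. The UUO value came from 1 library, with 16 of 101 cells in UUO2 and 0 of 43 in UUO1, and whether these cells were misnamed was not tested.

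Cells with at least 3 mitotic members among their thinned UMIs were rare. They were 32 of 5824 control proximal tubule cells (0.550%), 0.602% of UIR and 10 of 106 UUO ones (9.43%). The UUO share was carried by 1 library, since without thinning it was 25% (14 of 56 cells) in the library labelled UUO, 5.56% in UUO1 and 3.06% in UUO2. In the tubule outside it they were 0.148%, 0.283% and 0.565%. Among macrophages 1 of 322 control (exact 95% interval 0.00786% to 1.72%), 18 of 2173 UIR (0.492% to 1.31%) and 28 of 2563 UUO cells (0.727% to 1.58%) carried this signature. The intervals cover counting error only, and they overlap.

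The members' UMIs came from different cells in the control and the injured kidneys. In the controls proximal tubule cells were 69.0% of the cells and held 67.8% of all UMIs. They gave 69.4% ± 12.65 (SD, n = 5) of the mitotic and 61.7% ± 28.5 (SD, n = 5) of the Mki67 UMIs on average. In UIR and UUO they were 15.3% and 1.52% of the cells. In UIR macrophages, T/NK cells and the other immune cells gave 17.7%, 18.5% and 27.2% of Mki67 UMIs, and the tubule outside the proximal tubule 15.7%. Their shares of all UMIs were 10.9%, 7.08%, 6.02% and 47.7%. In UUO the same classes gave 20.2%, 18.1%, 35.5% and 7.22% of Mki67 UMIs, beside 19.4%, 9.08%, 11.5% and 36.8% of all UMIs. The other immune cells, which are dendritic cells, B cells and neutrophils, were 3.89% of UIR and 9.43% of UUO cells. Stmn1 UMIs came mostly from tubular cells in every group, with 78.8% from the proximal tubule in control and 54.4% and 51.7% from the rest of the tubule in UIR and UUO.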

How the data were processed

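The authors deposited, for each library, 1 matrix of UMI counts over genes and droplets, with the empty droplets left in, from 3' end single-cell libraries. These are raw counts, not normalized. The submitters' processing notes name Cell Ranger 3.1.0 and mm10, and the matrix header names version 3.1.0 as well. A library holds 49503312 to 117043590 UMIs.

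A droplet counted as a cell above a UMI cutoff of its library (3488 to 8983 UMIs) or, from 500 UMIs, when its profile departed from that of empty droplets (FDR of 0.01). Barcodes over 30% mitochondrial or 5% hemoglobin UMIs or under 200 genes were removed, as were likely doublets, set at the 7.5% that most resembled summed pairs of cells. The 43 members, the other cell cycle genes and the marker genes were left out of the 2000 genes that clustered the cells (40 components, 20 neighbours, Leiden resolution 1). So were 171 further genes whose values correlated over these cells with the summed mitotic members (r above 0.08). Clusters took the name of the highest of the marker lists, and 602 of 40608 cells were left unnamed.

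UMIs were summed per cell type and library where it had at least 20 cells. All groups entered 1 model per cell type (edgeR 4.0.16 quasi-likelihood test, filterByExpr, TMM, Benjamini-Hochberg adjustment over all genes tested, threshold 0.05, R 4.3.3). The steps were tested on simulated data. Shares were compared by exact permutation tests over libraries. Floors are 3 counts over a group. Intervals are 95% and exact, and cover counting error only. DESeq2 1.42.0 was an alternative, and the closing section gives the others.

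The members, gene lists and tests were chosen with earlier results of these data known. Members followed in the pools where they were tested are Mki67, Top2a, Cdk1, Ccnb1, Mcm5, Pcna, Rrm2, Tyms, Stmn1 and Hmgb2, without a printed value in each pool. In each comparison up to 6 called members of the largest fold change were also followed. Of the other lists up to 3 genes with the lowest adjusted p were named. Additional members were named to account for all roles. The study's own cell annotation was not used here.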

Additional observations from a re-analysis of the deposited data

Results flagged for a closer look

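In groups of 4 to 10 libraries, the highest or lowest library was compared with the spread of the others. Of 92 control groups checked, 22 (23.9%) had a library that stood apart. The rate of about 1 in 20 by chance does not hold for values on few UMIs, such as Tk1 in macrophages with 1 control UMI. The checks also share cells between genes, so that no excess over chance is shown.

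In the tubule outside the proximal tubule the library Ctrl stood above the other controls in 6 of the genes checked, which were the named ones. Its level was 19.7 CPM for Mki67, 23.4 CPM for Top2a, 4.86 CPM for Cdk1, 22.7 CPM for Rrm2, 39.6 CPM for Stmn1 and 8.80 CPM for Spc24. The highest of the other controls was 1.55 CPM for Mki67, 1.04 CPM for Top2a, 0 CPM for Cdk1, 8.29 CPM for Rrm2, 12.3 CPM for Stmn1 and 2.59 CPM for Spc24.

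In endothelial cells the library AN2 stood above the other controls, at 58.7 CPM for Mki67, 66.8 CPM for Top2a, 129.5 CPM for Stmn1 and 166 CPM for Hmgb2, and with 2.17% of cells for Mki67 and 2.17% for Top2a. N1 was high for Mcm5, at 8.67 CPM. In macrophages Ctrl was low for Mcm5, at 0 CPM, and for Mcm7, at 10.5 CPM, and N2 was high for Tk1, at 5.08 CPM, and for Mcm4, at 10.2 CPM. In T/NK cells AN2 was high, at 143 CPM for Mki67, 90.9 CPM for Mcm5 and 169 CPM for Pcna and with 7.41% of cells for Mki67, and AN1 was high for Cdk1, at 43.8 CPM.

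The effect of injury on some members differed between cell types in the test of the difference itself (edgeR interaction with macrophages as the reference, log2 scale, adjusted p under 0.05). In UIR the difference was -2.11 for Mcm4 in endothelium, -2.02 for Mcm4 and -4.33 for Tk1 in the proximal tubule, -1.73 for Pcna in T/NK cells, and -2.92 for Spc25 and -4.24 for Tk1 in the tubule. In UUO it was -1.61 for Pcna in T/NK cells, and -4.56 for Rrm2 and -2.64 for Spc25 in the tubule. UUO and UIR themselves differed by -0.52 for Ccnd2 in endothelium and by -0.62 for Stmn1, -0.58 for Mcm7 and 0.81 for Ccnd3 in macrophages. Ccnd3 stood at 40.5 to 61.7 CPM in UUO and 24.5 to 35.4 CPM in UIR macrophages.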

How the results depend on the processing

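The counts below are of members called out of those tested, in the order UIR against control, UUO against control and UUO against UIR. The number tested and the share of all genes called change with the setting and are not given. The counts therefore show neither whether the same members were called nor an excess over other genes. As reported they were 1, 4 and 0 in the proximal tubule, 7, 11 and 0 in the other tubule, 2, 1 and 0 in stroma, 0, 2 and 0 in endothelium, 5, 2 and 2 in macrophages and 1, 2 and 0 in T/NK cells. Without any filter on low counts, 3, 10 and 8 were called in the proximal tubule, 2 in UUO and 1 between the models in stroma, 6, 4 and 2 in endothelium, 9 and 5 in macrophages and 6 and 5 in T/NK cells. With DESeq2 the count was 14 in UUO and 12 between the models in the proximal tubule, 1 in UIR stroma, 1 in UUO endothelium, 1 between the models in macrophages and 1 in UUO T/NK cells, and with its size factors inside edgeR 3 in UIR T/NK cells.

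With the Ctrl control only, 8 members were called in UIR and 6 between the models in the proximal tubule, 18 and 17 in the other tubule, 0 in UUO endothelium, 0, 0 and 0 in macrophages and 0 and 0 in T/NK cells. There the spread comes from the injured groups alone, and the single control is assumed to vary like them. With the N controls only it was 1 in UIR stroma, 0 in UUO endothelium, 0, 0 and 1 in macrophages and 0 and 0 in T/NK cells. With the AN controls only it was 11 in UUO and 4 between the models in the proximal tubule, 0 and 0 in stroma, 0 in UUO endothelium, 1, 0 and 1 in macrophages and 6 and 7 in T/NK cells. With the number in the library title as a replicate block, 2 were called between the models in the proximal tubule, 1 in UIR and 1 between the models in stroma, 1 between the models in macrophages and 4 and 4 in T/NK cells. At most 2 of 9 to 13 pairs with the same number correlated above 0.1 in any cell type, the highest at 0.58 in the tubule. The median over such pairs was -0.063 to 0.014. The numbers were therefore not taken as pairs, and whether some libraries shared a run was not tested.

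With a mitochondrial limit of 15% the counts were 8 in UUO proximal tubule, 6 in UUO tubule, 0 and 0 in stroma, 1 in UUO endothelium, 0 between the models in macrophages and 0 and 0 in T/NK cells. With a limit of 50% they were 13 and 17 in the tubule, 0 and 0 in stroma, 1 and 1 in endothelium and 3 and 4 in T/NK cells. With at least 1000 UMIs per cell they were 0 in UUO proximal tubule, 1 in UIR stroma, 0 in UUO endothelium and 0 and 0 in T/NK cells. Without doublet removal they were 7 in UUO proximal tubule, 4 and 3 in stroma, 2 between the models in endothelium, 10, 7 and 0 in macrophages and 0 and 0 in T/NK cells. With each cell named by itself they were 1 in UUO proximal tubule, 2 in UUO stroma, 1 in UIR endothelium, 1 in UUO and 0 between the models in macrophages and 0 and 1 in T/NK cells. With expected free RNA subtracted they were 1 in UUO endothelium, 1 between the models in macrophages and 0 and 0 in T/NK cells, and at clustering resolution 2 it was 1 between the models in macrophages.

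Some alternatives were chosen after seeing the data. Without the cells that carried the mitotic signature the counts were 0 in UUO proximal tubule, 1 in UIR stroma, 1 in UUO endothelium, 2, 1 and 0 in macrophages and 0 and 0 in T/NK cells. Without the tubular clusters of no segment name it was 7 in UUO, and with intercalated cells only 2 and 4. Without the contractile cluster it was 1 in UIR stroma, and without the shallow macrophage cluster 2, 1 and 0 in macrophages.

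When each library was left out in turn the counts ranged over 0 to 1, 0 to 12 and 0 to 11 in the proximal tubule, 7 to 10 and 8 to 14 in the other tubule, 1 to 2 and 1 to 2 in stroma, 0 to 2 in UUO endothelium, 4 to 5, 1 to 2 and 0 to 2 in macrophages and 0 to 2 and 0 to 3 in T/NK cells. The count of Mki67 and Top2a shares past the threshold stayed at 0, which the design nearly fixes and which says nothing of stability.

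These log2 fold changes turned around. Mki67 in the UIR proximal tubule was 2.19 with the AN controls only, and with at least 1000 UMIs per cell Rrm2 was -7.36 and Ccnd2 -3.22 in UUO proximal tubule. In the tubule Mki67 was 3.13 in UIR and 3.37 in UUO with a mitochondrial limit of 15%. Cdk1 there was 6.64 in UIR and 6.87 in UUO without Ctrl and -0.57 and -0.34 without AN2, the ends of the range when 1 library is left out, 6.91 and 7.14 with the AN controls only and 7.12 in UUO with the N controls only, and where Ctrl is left out these depend on the prior count, since no other control held a Cdk1 UMI. In stroma Cenpa was -1.07 in UIR and -1.88 in UUO without doublet removal, and in UUO -0.086 at the 50% mitochondrial limit and -0.47 with at least 1000 UMIs per cell. Endothelial Cenpe in UUO was 0.35 without doublet removal. In T/NK cells 2810417H13Rik was 0.60 in UIR and 0.74 in UUO with the Ctrl control only, 1.25 and 1.39 with N only, 0.93 and 0.74 at the 15% limit and 0.076 and 0.10 without doublet removal, and Stmn1 in UUO was 0.39, 0.058, 0.29 and 0.34 under the same 4. The cause was not tested.

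Of 2090 alternative values for 79 called results 1694 kept their call and direction, 377 lost the call and 19 turned around. In the tubule Spc25 and Stmn1 kept their calls in both models in all 28 alternatives, and Rrm2 in all 27 that gave it a value. Low depth limits the precision in the UUO proximal tubule and the control stroma, macrophage and T/NK pools.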

Other observations

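Among the immune cells that were too few in the controls for a comparison, dendritic cells carried the mitotic signature in 18 of 581 UIR cells (3.1%, exact 95% interval 1.85% to 4.85%) and in 20 of 612 UUO cells (3.27%, 2.01% to 5.0%), and 0 of the 20 control cells had it, which allows a share of up to 16.8%. B cells carried it in 5 of 243 UUO cells (2.06%, 0.671% to 4.74%), and library UUO2 held 199 Mki67 UMIs in 19 of its 91 B cells. Neutrophils carried it in 0 of 303 UUO cells, which allows a share of up to 1.21%. These are values of cells after thinning to 1000 UMIs, and the intervals cover counting error only.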
